A study of Mus musculus with 12 samples.

Results

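The genes described here are the amino acid and peptide transporters of 8 solute carrier families, chosen by name. A member is a protein-coding gene whose symbol in the GENCODE M21 annotation (mouse build GRCm38) starts with Slc1a, Slc3a, Slc6a, Slc7a, Slc15a, Slc36a, Slc38a or Slc43a and which had at least 10 raw counts summed over all libraries. The rule found 58 members among the 69 genes with such names and among the 46078 genes in the files. The 11 genes left out had fewer counts and were not examined. Slc7a6os is a member by its symbol, but it is a separate gene beside Slc7a6 on the opposite strand and is not known as a transporter.

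The samples were epithelial scrapings of the proximal ileum of male C57BL/6 mice, with no transgene or deletion. The animals were 28 days old at the start and 56 days old at the end, and in between they were gavaged every 4 days, 7 times in all. The vehicle group received sesame oil, and 3 further groups received 3, 10 or 30 µg/kg of TCDD, a dioxin and a ligand of the aryl hydrocarbon receptor (AhR). Each group held 3 libraries, numbered here in accession order, and the series describes them as biological replicates. The p-values therefore measure the spread between these 3 mice per group.

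Dietary protein leaves the gut lumen as short peptides and free amino acids. Peptides enter the enterocyte with protons through Slc15a1, and amino acids enter through a set of brush border carriers that overlap in substrate, several of them driven by sodium. On the blood side, exchangers and facilitative carriers pass the amino acids on. Some carriers work as pairs of a heavy chain (Slc3a1 or Slc3a2) and a light chain of the Slc7 family.

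Libraries held between 11695887 and 22180274 counts assigned to genes, and members took between 0.77% and 1.2% of them. A count of 3, taken as the limit of detection, equalled between 0.135 and 0.257 CPM (the usual depth-scaled count), a limit that covers counting error only. The AhR target Cyp1a1 rose with dose, from 19.0 to 27.5 CPM in vehicle to 2608 to 3251 CPM at 30 µg/kg, and was called at 10 and 30 µg/kg. Enterocyte markers were abundant in every library, with Vil1 at 3031 CPM or more. The 6 ileal markers were divided in vehicle. Fabp6 and Fgf15, which are defining genes of the ileum, had at most 0.139 CPM and the bile acid importer Slc10a2 had between 0.451 and 2.68 CPM. The bile acid exporter subunits Slc51a and Slc51b had 127 to 151 and 55.9 to 99.4 CPM, and the bile acid receptor Nr1h4 had 22.4 to 37.5 CPM. Gata4, a factor of the more proximal small intestine, had 154 to 168 CPM and lactase (Lct) had 3186 to 3341 CPM.

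The levels in vehicle were compared per kilobase of exon, since longer transcripts collect more reads. Slc15a1, the proton-coupled carrier of dipeptides and tripeptides, came first with 369 ± 92.2 CPM per kb (SD, n = 3). Slc6a8, the creatine transporter, followed with 277 ± 63.1 CPM per kb, and Slc6a19, the main sodium-dependent carrier of neutral amino acids in the brush border, with 265 ± 41.3 CPM per kb. The libraries of these 3 genes overlapped, so their order was not larger than the spread between mice. Slc43a2, a facilitative carrier of large neutral amino acids, had 172 ± 17.2 CPM per kb, and its highest library lay below the lowest of Slc6a19.

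The next places were held by both sides of the cell. Slc3a1, the heavy chain of the cystine and cationic amino acid exchanger, had 159 ± 29.9 CPM per kb and its light chain Slc7a9 had 85.5 ± 5.63 CPM per kb. On the basolateral side the heavy chain Slc3a2 had 105 ± 14.7 CPM per kb, beside its light chains Slc7a8 at 135 ± 35.4 and Slc7a7 at 85.9 ± 13.8 CPM per kb. The level of Slc36a1, a proton-coupled carrier of small amino acids such as proline and glycine that is found in the brush border and in lysosomes, was 88.2 ± 11.1 CPM per kb. Slc7a15 (78.5 CPM per kb, named after its values were seen) and the taurine transporter Slc6a6 (49.0 CPM per kb) came after these.

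The distribution of levels was steep. The first 5 members held 62.0% of the summed vehicle level per kb, and the first 10 held 87.0%. A vehicle mean of at least 100 CPM per kb was found for 7 members, and 27 members lay below 1 CPM per kb. Of 57 neighbouring pairs in this order, 49 overlapped between their vehicle libraries. Slc6a14 had 0.0650 ± 0.0233 CPM per kb in vehicle, among the lowest members, and 11 members had too few counts to be tested. Those 11 had between 14 and 86 counts over all libraries, and among them were Slc15a5 of the peptide carriers and Slc38a3, a glutamine carrier.

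**Figure D1:**
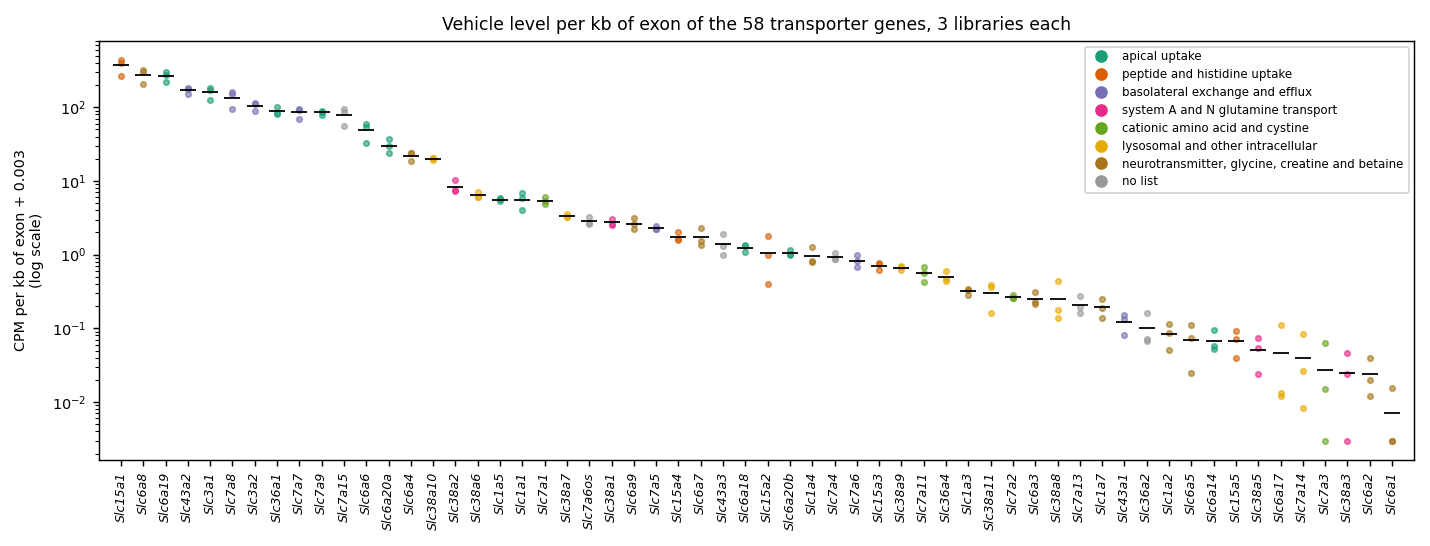
Level in vehicle of each of the 58 members, as CPM per kb of exon plus 0.003 on a log axis, ordered by the mean. Dots are the 3 vehicle libraries, coloured by role, and bars are their means; the peptide carrier Slc15a1 lies highest at 369 CPM per kb and Slc6a14 lies near the low end at 0.0650 CPM per kb.

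Promoter sequences of 3 members are shown because the results below turn on them: Slc6a14 differed most between doses, Slc36a1 declined over dose, and Slc15a1 had the highest level. They are the 250 bases before the RefSeq start site (GRCm38.p6), given 5′ to 3′ on the strand of the gene. Capitals mark the E-box CACGTG or the core of the dioxin response element, GCGTG, each searched on both strands. Slc6a14 lies at chrX:21714650-21714899 on the plus strand, Slc36a1 at chr11:55204090-55204339 on the plus strand and Slc15a1 at chr14:121505255-121505504 on the minus strand.
Slc6a14: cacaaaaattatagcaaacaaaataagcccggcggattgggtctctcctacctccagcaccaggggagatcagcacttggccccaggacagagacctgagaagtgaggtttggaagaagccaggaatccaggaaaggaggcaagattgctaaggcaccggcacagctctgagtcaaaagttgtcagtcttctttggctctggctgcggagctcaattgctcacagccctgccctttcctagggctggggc
Slc36a1: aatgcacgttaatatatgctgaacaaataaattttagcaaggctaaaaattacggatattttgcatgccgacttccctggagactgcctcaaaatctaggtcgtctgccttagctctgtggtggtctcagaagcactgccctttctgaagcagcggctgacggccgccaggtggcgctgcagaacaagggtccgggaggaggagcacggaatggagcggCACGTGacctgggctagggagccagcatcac
Slc15a1: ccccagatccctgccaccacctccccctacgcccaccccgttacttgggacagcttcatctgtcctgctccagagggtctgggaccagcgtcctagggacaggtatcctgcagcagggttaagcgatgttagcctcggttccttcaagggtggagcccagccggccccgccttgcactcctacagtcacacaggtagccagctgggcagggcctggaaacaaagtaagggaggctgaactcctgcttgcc
GCGTG was in none of these 3 windows, and CACGTG stood once in that of Slc36a1, starting 31 bases before the start site. The RefSeq table had 54 promoters for 41 of the 58 members. GCGTG was in 20 of the 54, or 37.0%, against 28.2% of all 32851 promoters in the table. CACGTG was in 7 of the 54, or 13.0%, against 6.02% of all. A match is a run of letters and was not tested as a binding site.

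The comparisons with vehicle asked which carriers differed at each dose. A gene was called when edgeR's quasi-likelihood test gave a Benjamini-Hochberg adjusted p under 0.05 over 15823 genes and the change was at least 1.5-fold, and 47 members were tested. At 3 µg/kg 1 of the 47 members was called, against 0.228% of all genes, and it was Slc6a14, higher than in vehicle. At 10 µg/kg 1 member was called, against 0.613% of all genes, and it was again Slc6a14, higher. At 30 µg/kg 1 member was called, against 3.97% of all genes, and it was Slc7a4, higher. In the trend over dose rank 1 member was called, against 3.29% of all genes, and it was Slc36a1, lower. The test of any difference among doses called 1 member, Slc6a14, against 6.78% of all genes. In these bulk samples fewer cells of a type and less RNA per cell cannot be told apart.

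Most of the members had small estimated changes. At 30 µg/kg the median log2 change over the 47 members was -0.0019, beside -0.016 over all genes tested, and at the lower doses it was -0.078 and -0.13, beside 0.0017 and -0.0096. The estimated log2 change was under 0.5 in size for 41, 41 and 38 members at 3, 10 and 30 µg/kg. In that order these are 87.2%, 87.2% and 80.9%, beside 86.7%, 82.2% and 79.8% of all genes. For 16 members, or 34.0%, the whole 95% interval at 30 µg/kg lay within 1.5-fold of vehicle, beside 41.6% of all genes. For the other members, the called Slc7a4 among them, the interval reached past 1.5-fold. An unadjusted p under 0.05 was reached by 2, 6 and 12 members at 3, 10 and 30 µg/kg. At 3 µg/kg that is 4.3% beside 11.4% of all genes, and at 10 µg/kg 12.8% beside 15.9%. At 30 µg/kg it is 25.5% beside 21.6%. These differences from all genes rest on few members and were not tested.

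**Figure D2:**
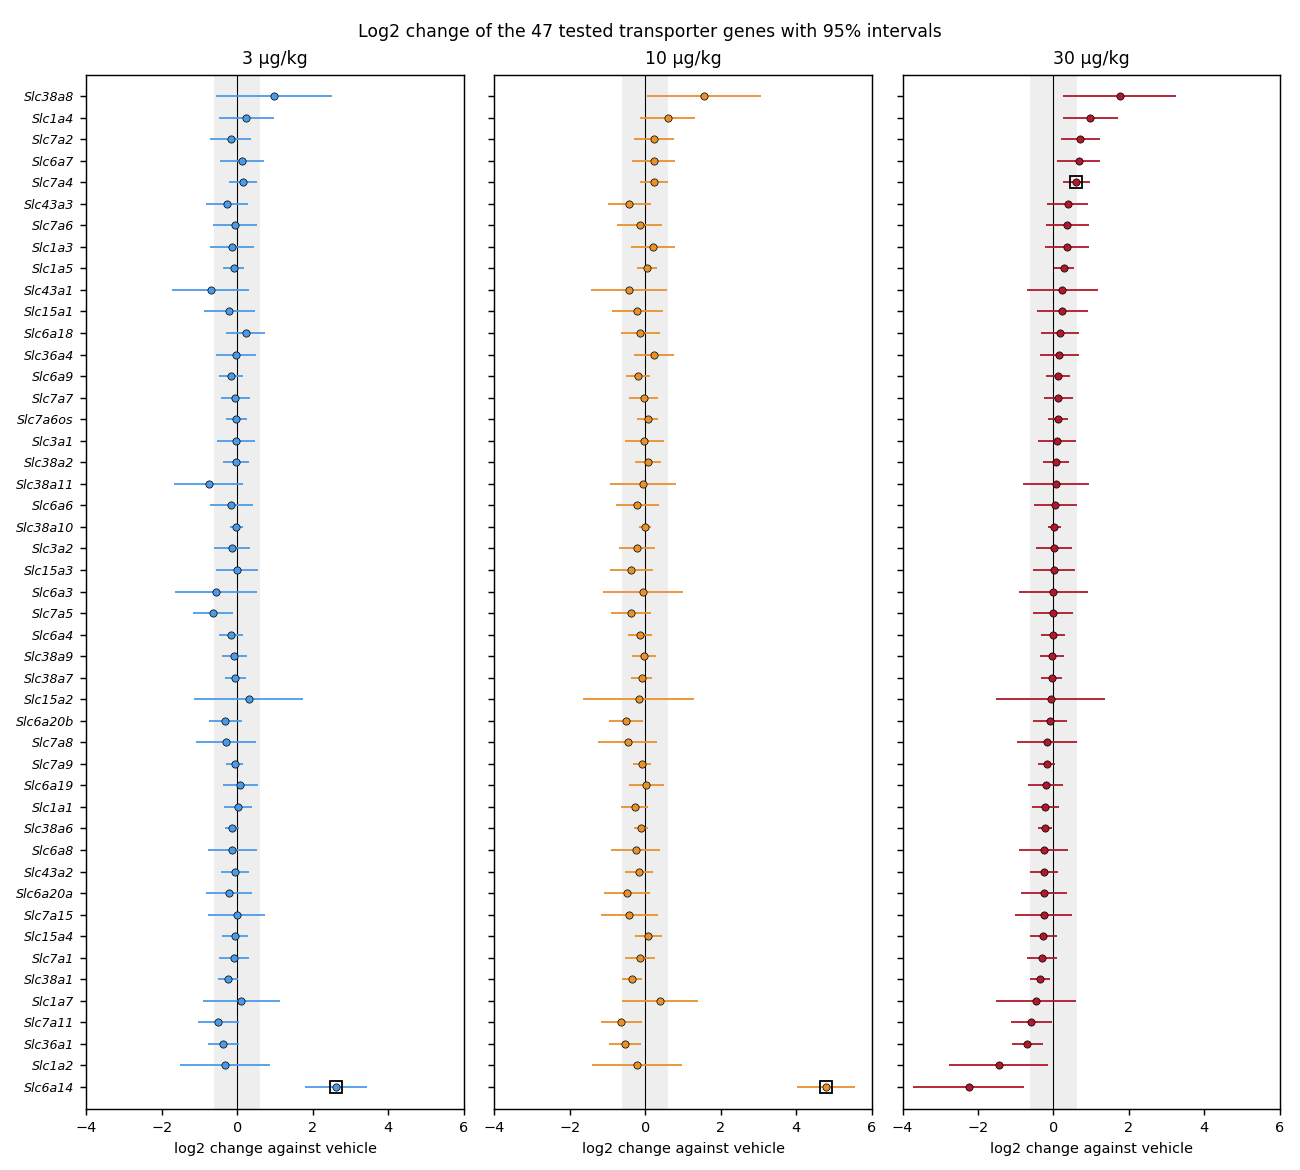
Log2 change against vehicle of the 47 tested members at each dose, with 95% intervals, ordered by the change at 30 µg/kg. Grey marks changes under 1.5-fold and squares mark calls; Slc6a14 stands apart at 2.62 and 4.79 at 3 and 10 µg/kg and lies at the opposite end at 30 µg/kg.

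Slc6a14 (ENSMUSG00000031089, chromosome X, 21714896 to 21742355, plus strand) carries neutral and cationic amino acids with sodium and chloride, and it is better known from colon and lung than from small intestine. Its level in vehicle was 0.169, 0.185 and 0.315 CPM, from 3, 4 and 6 counts. At 3 µg/kg the libraries had 1.36, 1.17 and 1.70 CPM, from 18, 20 and 29 counts. At 10 µg/kg they had 5.40, 7.04 and 6.61 CPM, from 75, 97 and 108 counts. The order was the same in every comparison of mice, since no library of one group overlapped with another. At 30 µg/kg the libraries had 0.0511, 0.0889 and 0 CPM, from 1, 1 and 0 counts, which is under the limit of detection in each library.

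The level of Slc6a14 thus rose from vehicle to 10 µg/kg and was lowest at 30 µg/kg. The log2 change against vehicle was 2.62 ± 0.38 (SE) at 3 µg/kg with an adjusted p of 0.0106, and 4.79 ± 0.35 at 10 µg/kg with an adjusted p of 1.9e-05. Between 10 and 3 µg/kg the log2 change was 2.16 ± 0.29 with an adjusted p of 0.0063, and Slc6a14 was the only member called, against 0.158% of all genes. Between 30 and 10 µg/kg it was again the only member called, against 2.77% of all genes, and it was lower at 30 µg/kg with an adjusted p of 3.4e-06. The summed counts were 280 and 2, a ratio of 10 to 30 µg/kg of 156, with an exact 95% counting interval from 42.9 to 1296. Against vehicle the libraries at 30 µg/kg were lower by a ratio of 5.47, with a counting interval from 1.24 to 49.9. Both counting intervals pool the mice of a group and leave out the spread between mice. The difference between 30 µg/kg and vehicle did not pass the edgeR test, with an adjusted p of 0.083.

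Some of these calls rested on single libraries. At 3 µg/kg the adjusted p was 0.063 without vehicle replicate 1, 0.080 without vehicle replicate 2, 0.055 without replicate 3 of 3 µg/kg and 0.12 when only the 2 compared groups were fitted. Between 10 and 3 µg/kg it was 0.075 without replicate 2 of 3 µg/kg, 0.062 without replicate 2 of 10 µg/kg and 0.053 without replicate 3 of 10 µg/kg. The log2 change in those fits was between 2.05 and 2.62. At 10 µg/kg against vehicle, and at 30 against 10 µg/kg, Slc6a14 was called in all 12 fits that left out 1 library. Every dose held 1 library of each of 3 read indexes, and within each index the level rose from vehicle to 3 to 10 µg/kg and was lowest at 30 µg/kg.

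Marker genes of other gut regions moved with the same groups. Fabp6, the ileal bile acid binding protein, had 38.3, 32.5 and 22.9 CPM at 3 µg/kg and at most 0.306 CPM in any other library. Of 6 ileal enterocyte markers, 2 were called higher at 3 µg/kg (Fabp6 and Fgf15), and the summed level of the list was 223 to 264 CPM in vehicle, then 271 to 303, 186 to 252 and 264 to 386 CPM with rising dose. Car1, a carbonic anhydrase abundant in colon, had 55.7, 62.2 and 43.7 CPM at 10 µg/kg and no count in the other 9 libraries. The water channel Aqp8 had 4.72 to 5.62 CPM at 10 µg/kg and at most 0.821 CPM elsewhere. Of 8 colon markers, 6 were tested and 2 were called higher at 10 µg/kg (Car1 and Aqp8), and the summed level was 139 to 182 CPM in vehicle, then 151 to 190, 205 to 250 and 108 to 171 CPM with rising dose. Hoxb13, a colon marker with too few counts to be tested, had 0.648, 0.363 and 0.980 CPM at 10 µg/kg and at most 0.169 CPM elsewhere, while Fxyd4 had at most 0.105 CPM in any library. The part of ileal or colonic tissue in the level of Slc6a14 was not tested.

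**Figure D3:**
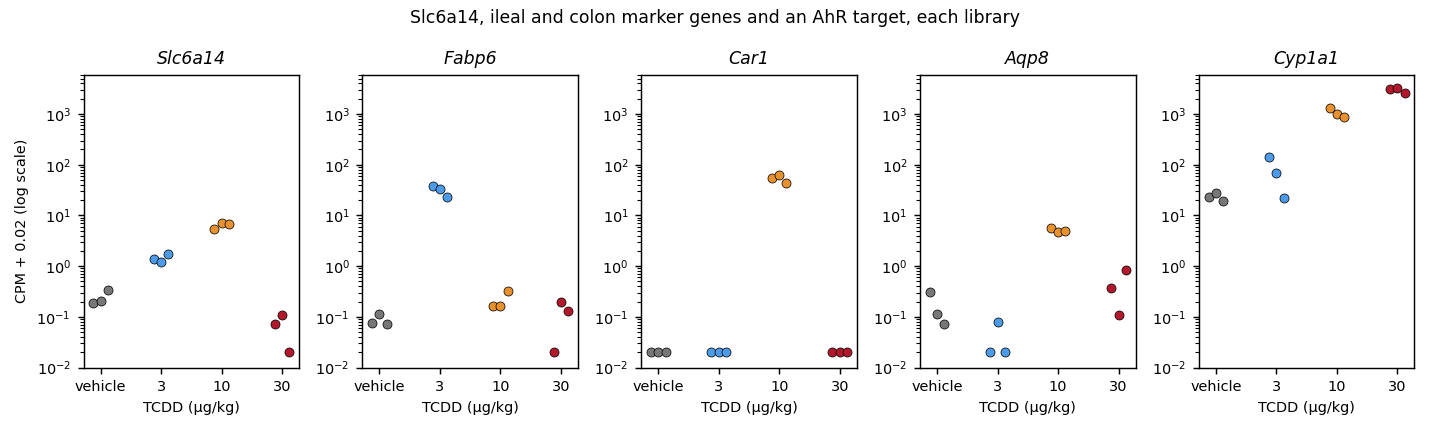
CPM plus 0.02 on a log axis in each library for Slc6a14, the ileal marker Fabp6, the colon markers Car1 and Aqp8, and the AhR target Cyp1a1. Slc6a14 is highest at 10 µg/kg and lowest at 30 µg/kg, Fabp6 is high at 3 µg/kg alone, Car1 and Aqp8 are high at 10 µg/kg alone, and Cyp1a1 is highest at 30 µg/kg.

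Among the other 10 brush border carriers, Slc36a1 was the only one called in any test. Slc36a1 (ENSMUSG00000020261, chromosome 11, 55204350 to 55236330, plus strand) had 451, 568 and 469 CPM in vehicle and 464, 292 and 395 CPM at 3 µg/kg. It had 387, 346 and 293 CPM at 10 µg/kg and 383, 242 and 294 CPM at 30 µg/kg. Every library at 10 and 30 µg/kg lay below every vehicle library, while those at 3 µg/kg overlapped with vehicle. Groups that did not overlap were seen for 22.9% of all genes at 10 µg/kg and for 26.8% at 30 µg/kg.

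The trend of Slc36a1 over dose rank, expressed over the whole range, was a log2 change of -0.68 ± 0.17 with an adjusted p of 0.039. Against vehicle the log2 change was -0.37, -0.54 and -0.69 (SE 0.19 each) with rising dose, and the last had an adjusted p of 0.052, just outside the threshold. It passed with an adjusted p between 0.0092 and 0.043 under upper-quartile scaling, with genes of at least 10 counts in every library, in DESeq2, in limma-voom and with a clock score covariate. The trend itself was lost, with an adjusted p between 0.053 and 0.13, when any of 9 libraries was left out. These were the 3 vehicle libraries, replicates 1 and 3 of the lowest dose, and replicates 2 and 3 of both higher doses.

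The major carriers of the brush border did not pass the test at any dose. For Slc6a19 the libraries had 1100, 1507 and 1368 CPM in vehicle and 1295, 1152 and 1009 CPM at 30 µg/kg, a log2 change of -0.20 with a 95% interval from -0.67 to 0.26. Slc3a1 had a log2 change of 0.09 at 30 µg/kg with an interval from -0.42 to 0.60. Its light chain Slc7a9 had 234, 241 and 212 CPM in vehicle and 198, 199 and 209 CPM at 30 µg/kg, which did not overlap, and the log2 change of -0.18 had an interval from -0.42 to 0.05. Slc6a20b, a less abundant member with 1.05 CPM per kb in vehicle, did not overlap with vehicle at 3 or at 10 µg/kg. Its log2 changes there were -0.31 and -0.52, with adjusted p-values of 0.59 and 0.25.

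Less abundant carriers of the brush border were not called either. Slc1a5, an exchanger of glutamine and other neutral amino acids, had 22.0, 23.4 and 24.6 CPM in vehicle and 30.0, 27.4 and 27.3 CPM at 30 µg/kg. These did not overlap, and the log2 change of 0.27 ± 0.12 had an adjusted p of 0.22. Slc1a1, a glutamate and aspartate carrier, Slc6a6, Slc6a18 and Slc6a20a had log2 changes between -0.26 and 0.18 at 30 µg/kg, none of them past the test. Slc1a1, Slc3a1, Slc6a20a and Slc6a20b overlap exons of antisense genes, as do Slc7a7, Slc38a10, Slc6a9 and Slc7a2 among the carriers described next. Without a stated strand setting, it is not known whether reads in the shared exons were counted or dropped as lying in several genes. Prepl, the antisense gene of Slc3a1, had 17.2 to 23.4 CPM over all libraries.

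The peptide and histidine carriers had no call at any dose. Slc15a1 (ENSMUSG00000025557, chromosome 14, 121459621 to 121505252, minus strand) had 1296, 2157 and 1958 CPM in vehicle and 2439, 1080 and 1151 CPM at 3 µg/kg. At 10 µg/kg it had 2095, 1360 and 1190 CPM, and at 30 µg/kg 2358, 2311 and 1708 CPM. The libraries of every group overlapped with those of vehicle, and the group means lay between 1549 and 2126 CPM with SDs between 363 and 765 CPM. The log2 change at 30 µg/kg was 0.24 with an interval from -0.44 to 0.91. Slc15a2, a peptide carrier of higher affinity known from kidney, had 2.94 to 13.0 CPM in vehicle and 1.60 to 15.3 CPM at 30 µg/kg. The lysosomal carriers Slc15a3 and Slc15a4 lay between 2.26 and 11.5 CPM over all libraries, and both overlap antisense genes.

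The basolateral carriers, 7 genes, likewise had no call. Slc43a2 had 1536, 1862 and 1799 CPM in vehicle and 1525, 1446 and 1376 CPM at 30 µg/kg, which did not overlap, with a log2 change of -0.26 and an interval from -0.63 to 0.12. The heavy chain Slc3a2 had a log2 change of 0.01 at 30 µg/kg with an interval from -0.47 to 0.49, Slc7a7 one of 0.12 with an interval from -0.26 to 0.51, and Slc7a8 one of -0.18 with an interval from -0.96 to 0.61. The ratio of Slc7a7 to Slc3a2 per kb was 0.816 ± 0.020 in vehicle and 0.891 ± 0.0582 at 30 µg/kg. Slc7a5, a light chain of Slc3a2 that is found in growing cells, had 8.35, 9.07 and 8.14 CPM in vehicle and 3.70, 5.61 and 6.93 CPM at 3 µg/kg. These groups did not overlap, as for 15.4% of all genes, and the log2 change of -0.65 ± 0.25 had an adjusted p of 0.36. The less abundant Slc7a6 and Slc43a1 had at most 5.69 and 1.02 CPM in any library.

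Slc7a4 was the member called at 30 µg/kg. It (ENSMUSG00000022756, chromosome 16, 17572018 to 17583214, minus strand) had 3.67, 4.30 and 3.62 CPM in vehicle and 6.49, 5.42 and 5.75 CPM at 30 µg/kg. The groups did not overlap, and the libraries at 3 and 10 µg/kg lay between 3.70 and 4.90 CPM. The log2 change of 0.61 ± 0.16 had an adjusted p of 0.048, and the change was 1.52-fold, both close to the thresholds. The adjusted p was over 0.05 when any library other than replicate 1 of 3 µg/kg was left out, up to 0.16, and 0.056 to 0.097 under upper-quartile scaling, without the filter, with the read index as a term, with length and GC trends removed and when only the compared groups were fitted. Slc7a4 overlaps P2rx6 on the other strand, which had at most 0.602 CPM.

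**Figure D4:**
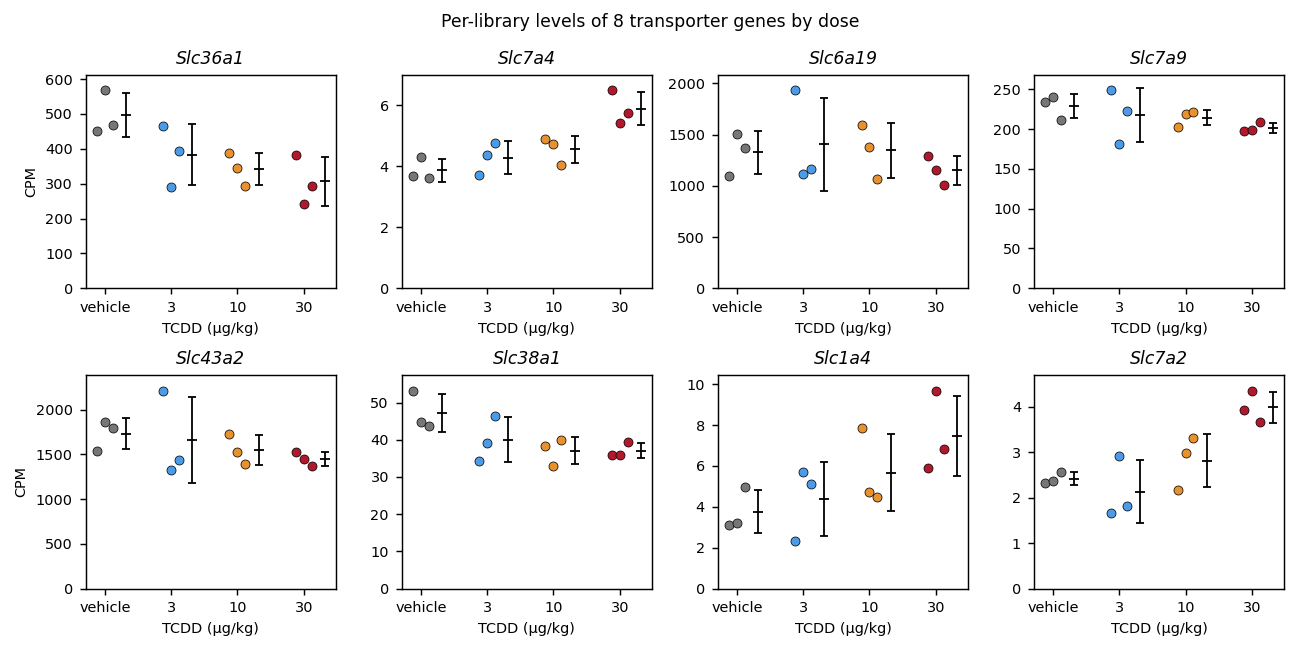
CPM in each library of 8 members by dose, with the mean and SD of each group to the right of its points. Slc36a1 has its lowest means at 10 and 30 µg/kg, Slc7a4 its highest at 30 µg/kg, and the libraries of Slc6a19 overlap between all groups.

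Marker lists of secretory cells were higher at the dose where Slc7a4 was called. Of 7 Paneth cell markers, 6 were called higher at 30 µg/kg, with a summed level of 665 to 1008 CPM in vehicle and 2087 to 2813 CPM at 30 µg/kg. Of 9 enteroendocrine markers, 6 were called higher (149 to 165 CPM in vehicle and 236 to 275 CPM), and of 7 goblet cell markers, 4. None of 12 enterocyte markers was called at any dose. The part of these cells in the values of Slc7a4 and Slc36a1 was not tested.

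The carriers of other roles had no call at any dose. Among the glutamine carriers, Slc38a2 had 56.7 to 90.9 CPM over all libraries. Slc38a1 had 53.2, 44.8 and 43.8 CPM in vehicle and 36.0, 35.9 and 39.4 CPM at 30 µg/kg, which did not overlap, and the log2 change of -0.35 ± 0.12 had an adjusted p of 0.12. Of the cationic amino acid and cystine carriers, Slc7a1 had a log2 change of -0.31 at 30 µg/kg with an adjusted p of 0.36. Slc7a11, which imports cystine in exchange for glutamate, had log2 changes of -0.50, -0.63 and -0.59 at 3, 10 and 30 µg/kg with adjusted p-values of 0.48, 0.25 and 0.19. The arginine carrier Slc7a2 had 2.31, 2.36 and 2.57 CPM in vehicle and 3.93, 4.35 and 3.67 CPM at 30 µg/kg, with no overlap and an adjusted p of 0.11.

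The intracellular carrier Slc38a10 had 119 to 136 CPM over all 12 libraries, and its log2 change at 30 µg/kg was 0.02 with an interval from -0.15 to 0.19. Slc38a7, a lysosomal exporter of glutamine, had a log2 change of -0.05 and Slc38a6 one of -0.23 at 30 µg/kg, with adjusted p-values of 0.87 and 0.15. Among the carriers of neurotransmitters and creatine, Slc6a8 had 1064, 1667 and 1592 CPM in vehicle and 1502, 1267 and 854 CPM at 30 µg/kg, with a log2 change of -0.26 and an interval from -0.91 to 0.40. The serotonin transporter Slc6a4 had a log2 change of -0.02 and the glycine transporter Slc6a9 one of 0.13, neither past the test. Slc1a4, a carrier of alanine, serine and cysteine, was looked at after its values were seen. It had 3.10, 3.19 and 4.99 CPM in vehicle and 5.92, 9.69 and 6.84 CPM at 30 µg/kg, with no overlap, a log2 change of 0.98 ± 0.33 and an adjusted p of 0.11.

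Genes that act beside these carriers were read from lists. Of 20 tested absorption partners (mainly peptidases and enzymes of amino acid use), none was called at any dose. The aromatic amino acid carrier Slc16a10 had an adjusted p of 0.047 at 30 µg/kg, with a log2 change of -0.49 that is under 1.5-fold. Of 20 tested genes of the ATF4 amino acid response, which is switched on when amino acids run short, 1 was called at 10 µg/kg and 1 at 30 µg/kg, both times Nupr1. Nupr1 had 4.26 to 4.40 CPM in vehicle, 7.13 to 8.34 CPM at 10 µg/kg and 9.29 to 13.2 CPM at 30 µg/kg. Asns, the asparagine synthetase of that response, had a log2 change of -0.18 at 30 µg/kg with an adjusted p of 0.66. None of 10 NRF2 targets, a list that contains Slc7a11, was called at any dose.

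Within every group the abundant carriers differed between mice in a shared way. The libraries were scored by 11 clock genes, as the mean z score of 7 (among them Dbp, Per2 and Per3) less that of 4 (among them Arntl and Npas2), and each group held libraries above and below 0. The score was 2.20 and 1.91 in vehicle replicates 2 and 3 and -1.99 in vehicle replicate 1. In the same order Slc15a1 had 2157, 1958 and 1296 CPM and Dbp had 121, 86.4 and 1.07 CPM. At 30 µg/kg the scores were 1.73, 1.07 and -0.795, with Slc15a1 at 2358, 2311 and 1708 CPM. Tissue was collected within the first 3 hours of the light phase, and the hour of each mouse is not given in the sources used here.

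The clock score as a term beside dose, a relation looked at with its values known, had an adjusted p under 0.05 for 15 of the 47 members, against 10.3% of all genes. Of these, 12 were higher with the score, against 5.81% of all genes, and 3 were lower, against 4.46%. The 12 were all among the 20 members of highest vehicle level per kb, and the shares over all genes were not matched for level. The relation was not particular to the carriers. Of the 20 tested absorption partners, 8 were higher and 2 were lower with the score. Of the 12 enterocyte markers, 3 were higher and 1 was lower. The log2 change per unit of score was 0.25 ± 0.027 for Slc7a8, 0.21 ± 0.025 for Slc15a1, 0.20 ± 0.028 for Slc6a8, 0.16 ± 0.021 for Slc3a1 and 0.14 ± 0.021 for Slc3a2, with adjusted p-values of at most 4.6e-04. For Slc6a19 it was 0.13 ± 0.024, for Slc7a7 0.11 ± 0.020 and for Slc43a2 0.093 ± 0.023. The 3 members that were lower with the score were Slc38a8 at -0.49 ± 0.080, Slc15a2 at -0.38 ± 0.093 and Slc38a2 at -0.085 ± 0.023.

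The partners of the cystine carrier differed here. The light chain Slc7a9 had a log2 change of 0.0039 ± 0.022 per unit of score, with an adjusted p of 0.95, whereas its heavy chain Slc3a1 passed. The ratio of Slc7a9 to Slc3a1 per kb was 0.699, 0.498 and 0.461 in the vehicle replicates 1 to 3 and 0.370, 0.432 and 0.571 in those of 30 µg/kg, so that the library with the lowest score had the highest ratio in both groups. Slc36a1 had a log2 change of 0.079 ± 0.031 per unit of score with an adjusted p of 0.14. Slc6a14 did not pass either, with -0.031 and an adjusted p of 0.86.

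**Figure D5:**
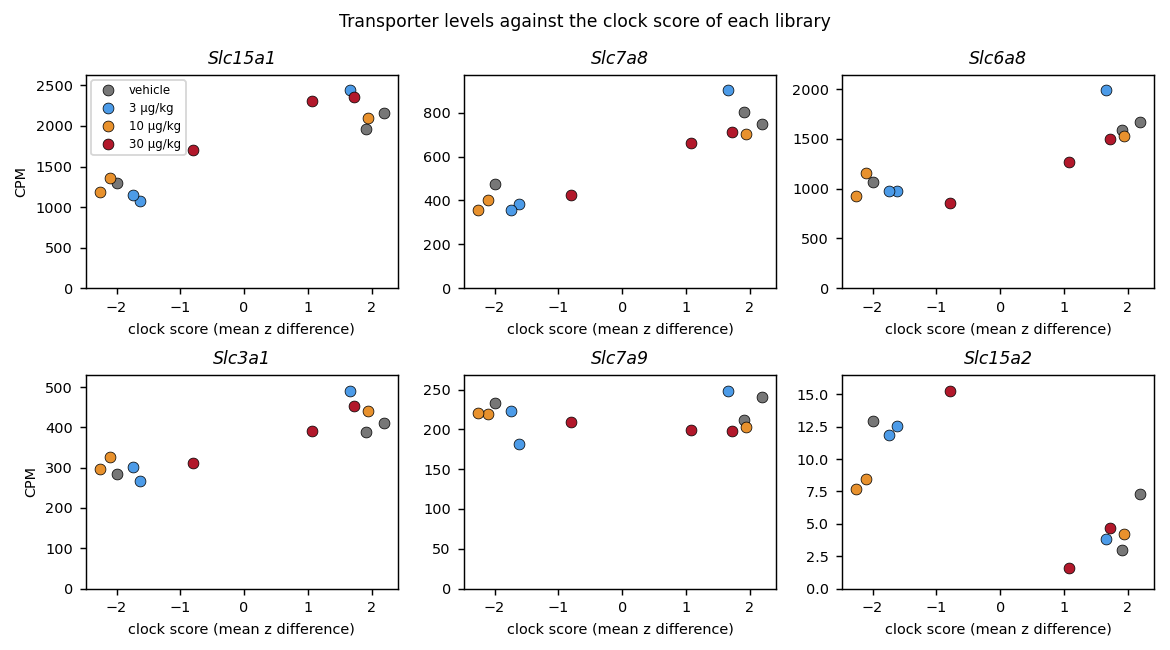
CPM of 6 members in each library against the clock score of that library, coloured by dose. Slc15a1, Slc7a8, Slc6a8 and Slc3a1 are higher in the 6 libraries with a score above 0, Slc7a9 has no such order, and Slc15a2 is lower in them.

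With the score in the model, the log2 change of Slc36a1 at 30 µg/kg was -0.69 with an adjusted p of 0.0093. Slc38a8, a glutamine carrier named after its values were seen, was then called at 30 µg/kg with a log2 change of 1.76 and an adjusted p of 0.0068, against 0.16 without the score. It had 1.52, 0.602 and 0.473 CPM in vehicle and 1.48, 1.96 and 5.20 CPM at 30 µg/kg. These groups overlapped.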

How the data were processed

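The authors deposited gene-level raw counts, a file per mouse, without normalisation. The submitters' processing notes name FastQC 0.11.3, Trimmomatic 0.33, TopHat2 2.1.0, SAMtools 1.2.0, HTSeq 0.6.1 and DESeq, and the build GRCm38. The strand setting and annotation release are not given in the sources used here. Reads outside genes (25.0% to 30.1% per library), in several genes (0.414% to 0.728%) or aligned to more than 1 place (31.4% to 38.8%) did not enter library sizes or tests, which can lower genes with close copies such as Slc6a20a and Slc6a20b. GENCODE M21 gave symbols, positions and exon lengths.

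All 12 libraries entered 1 quasi-likelihood model with 4 groups in edgeR 4.0.16 (R 4.3.3), after filterByExpr and TMM scaling, with Benjamini-Hochberg adjustment over 15823 genes. A call needed an adjusted p under 0.05 and a 1.5-fold change (adjusted p alone for any difference). The trend was a slope over dose rank, expressed over the whole range. Alternatives were other scalings and filters, DESeq2 1.42.0, limma-voom 3.58.1, a read index term, a clock score covariate, length and GC offsets, the compared groups alone, and each library left out. Code was tested on simulated data, and replicate libraries differed by more than counting noise.

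Members and lists were chosen with earlier results of these data known. The text names called members, the apical, peptide and basolateral carriers, the 5 most abundant members, up to 3 of each other role by mean count, and called genes of the partner, ATF4 and NRF2 lists. Other genes were named after their values were seen. A further gene that the rule also named is not reported here.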

Additional observations from a re-analysis of the deposited data

How the results depend on the processing

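Scaling by median-of-ratios changed no member count, and the median log2 change over all genes against vehicle lay between -0.035 and 0.039 in every setting. Without Slc6a14, which could not be tested when 10 counts were required in every library, that filter left 0 members at 3 and at 10 µg/kg, between 10 and 3, between 30 and 10 and for any difference, and 2 at 30 µg/kg. The compared groups alone gave 0 at 3 and at 30 µg/kg. At 30 µg/kg the count was 0 without the filter, with the read index, and with length and GC removed, 2 with DESeq2 and limma-voom, and 3 with the clock score. Upper-quartile scaling gave 1, Slc36a1 in place of Slc7a4. The trend gave 2 with DESeq2, limma-voom and the clock score. Any difference gave 2 with DESeq2 and 3 with the clock score. Leaving out each library gave 0 to 1 members at 3 µg/kg, 0 to 3 at 30 µg/kg, 0 to 1 between 10 and 3 µg/kg and 0 to 1 in the trend. At 10 µg/kg, between 30 and 10 µg/kg and for any difference it gave 1 each time. For the 34 named members tested, 745 values at 30 µg/kg were computed, none of a called member changed sign, 32 of uncalled members did, and 7 moved by over 1 SE. The causes were not tested. No paired analysis was possible because the labels give no replicate numbers that pair mice between doses. The read index was fitted as a term instead, and of the 7 counts of called members it changed the one at 30 µg/kg. Members under about 1 CPM, among them Slc6a14 in vehicle and at 30 µg/kg, rest on few counts, so their depth limits what could be detected.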

Other observations

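The peptide carrier Slc15a1 and the neutral amino acid carrier Slc6a19, both of the brush border, differed in their ratio at 30 µg/kg, a comparison made after the values were seen. The ratio of their levels per kb was 1.21, 1.47 and 1.47 in vehicle. With rising dose it was 1.29, 0.994 and 1.01, then 1.35, 1.01 and 1.14, then 1.87, 2.06 and 1.73. The 3 libraries at 30 µg/kg lay above the other 9. Against vehicle the mean log2 ratio was higher by 0.45, with an exact permutation p of 0.10 (two-sided), the smallest that 3 against 3 libraries can give. Groups that do not overlap always give this p, and the pair was picked with the values known, so the test adds no support. Neither gene was called at 30 µg/kg, and the ratio shows unequal levels without saying which gene moved. Both genes also varied with the clock score.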
